A study of Homo sapiens with 6 samples.

Results

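Cells handle double-stranded RNA (dsRNA) through a small set of proteins, and 9 of their genes were followed across all libraries of this series: DROSHA, DICER1, AGO2, TARBP2, PRKRA, ADAR, ILF2, DHX9 and STAU1. They were chosen by name, not by a measured value, though with earlier results of these data known. All 9 were found among the 34957 gene identifiers of the deposited tables and passed the minimum level for testing. A549 is a human lung adenocarcinoma cell line. It was transfected for 48 h with a negative control siRNA (si-ctrl) or with one of 2 siRNAs against the long noncoding RNA PLANE (si-PLANE.1 and si-PLANE.2), with 2 RNA-seq libraries per group. Replicates are numbered 1 and 2 in si-ctrl and in si-PLANE.1, and 3 and 4 in si-PLANE.2. Nothing in the labels says whether replicates came from separate cultures, so p-values measure the spread between these libraries, which may be technical. All groups were transfected with an siRNA, and no untransfected cells were analysed here.

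In RNA interference, the nuclease DROSHA trims primary microRNA transcripts in the nucleus, DICER1 cuts the resulting hairpins and long dsRNA in the cytoplasm, and an Argonaute protein such as AGO2 holds one strand as a guide. TARBP2 (TRBP) and PRKRA (PACT) are dsRNA-binding partners of DICER1, and they are also known to act on PKR, the kinase encoded by EIF2AK2. ADAR deaminates adenosines within dsRNA. ILF2 (NF45) works in complexes with dsRNA-binding proteins, DHX9 is an RNA helicase that unwinds dsRNA, and STAU1 (Staufen) binds dsRNA stem-loops in mRNAs and takes part in their localization, translation and decay.

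ADAR is transcribed from alternative starts. The p150 form begins at an interferon-inducible promoter and its protein is mainly cytoplasmic, whereas the p110 form begins at a constitutive start and translates from a downstream codon into a mainly nuclear protein. The 150 bases before each start are shown because ADAR was the 1 gene of the 9 whose level split between libraries of the same group, as described later. Both windows are on chromosome 1 of GRCh37 and are written 5′ to 3′ on the minus strand, which ADAR occupies. Capitals mark a match to a core of the interferon-stimulated response element (ISRE), written as GAAA, any 2 bases and GAAA again, and searched on both strands.
ADAR p150 start (ENST00000368474), chr1:154580663-154580812: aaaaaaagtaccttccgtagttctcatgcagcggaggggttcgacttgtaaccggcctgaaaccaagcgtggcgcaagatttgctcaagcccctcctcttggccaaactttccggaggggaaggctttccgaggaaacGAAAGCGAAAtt
ADAR p110 start (ENST00000368471), chr1:154600445-154600594: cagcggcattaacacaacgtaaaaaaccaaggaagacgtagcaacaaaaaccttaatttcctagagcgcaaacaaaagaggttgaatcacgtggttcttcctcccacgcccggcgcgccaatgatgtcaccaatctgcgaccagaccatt
The match lay 12 to 3 bases before the p150 start, and the p110 window held none. Among windows of the same length before all 78582 annotated starts, 1.84% held at least 1 match. No window before a protein-coding transcript of the other 8 genes that passed the minimum held these letters.

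The libraries held between 10572151 and 20778431 estimated counts, the si-PLANE.2 libraries being the deepest. Of 8 epithelial and A549 markers, 7 were at 1 FPKM or more in every library, and the endothelial markers did not exceed 0.43 FPKM. Leukocyte markers reached at most 9.41 FPKM and fibroblast markers 13.1 FPKM. The si-PLANE.2 libraries stood apart in replication-dependent histone mRNAs, which lack a poly(A) tail. The median of the 35 such genes at the minimum level was 115 and 119 FPKM in si-ctrl, 66.4 and 84.5 in si-PLANE.1, and 0.83 and 0.98 in si-PLANE.2. A difference in how RNA was selected for sequencing and an effect of si-PLANE.2 therefore cannot be told apart in any result on these libraries. PLANE itself was not analysed here, so its knockdown was not checked.

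Levels between genes were compared in FPKM, which scales by transcript length. In the si-ctrl libraries ILF2 was the highest of the 9, at 233 and 216 FPKM. ADAR, at 155 and 69.3, and DHX9, at 81.9 and 68.5, overlapped each other, and STAU1 followed at 52.6 and 50.9. DICER1 (35.7 and 37.3), DROSHA (32.5 and 40.3) and AGO2 (30.7 and 37.4) could not be ordered beyond the spread of their libraries. PRKRA stood below them at 28.01 and 27.5, and TARBP2 was the lowest at 16.4 and 15.2. By these gene sums, the RNA-binding cofactors of DICER1 were thus lower than the nucleases and AGO2. The sums include retained-intron and other noncoding forms, so they do not order the coding mRNAs. The main coding forms of AGO2 (ENST00000220592, 14.3 and 9.75 FPKM) and PRKRA (ENST00000325748, 13.0 and 13.8) overlapped. Even TARBP2 lay at the 57.5th percentile of the genes tested. In bulk RNA, fewer cells expressing a gene and less RNA per cell cannot be told apart.

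For the same gene between libraries, levels are given as CPM, counts relative to a library size scaled by TMM (a trimmed-mean method), because the tests were run on counts. Each siRNA was compared with si-ctrl by edgeR's quasi-likelihood test with Benjamini-Hochberg adjustment over all genes tested, and a gene was called at an adjusted p under 0.05. Both comparisons use the same si-ctrl libraries. The values of the 9 genes are shown for each library in the plot of gene levels.

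**Figure D1:**
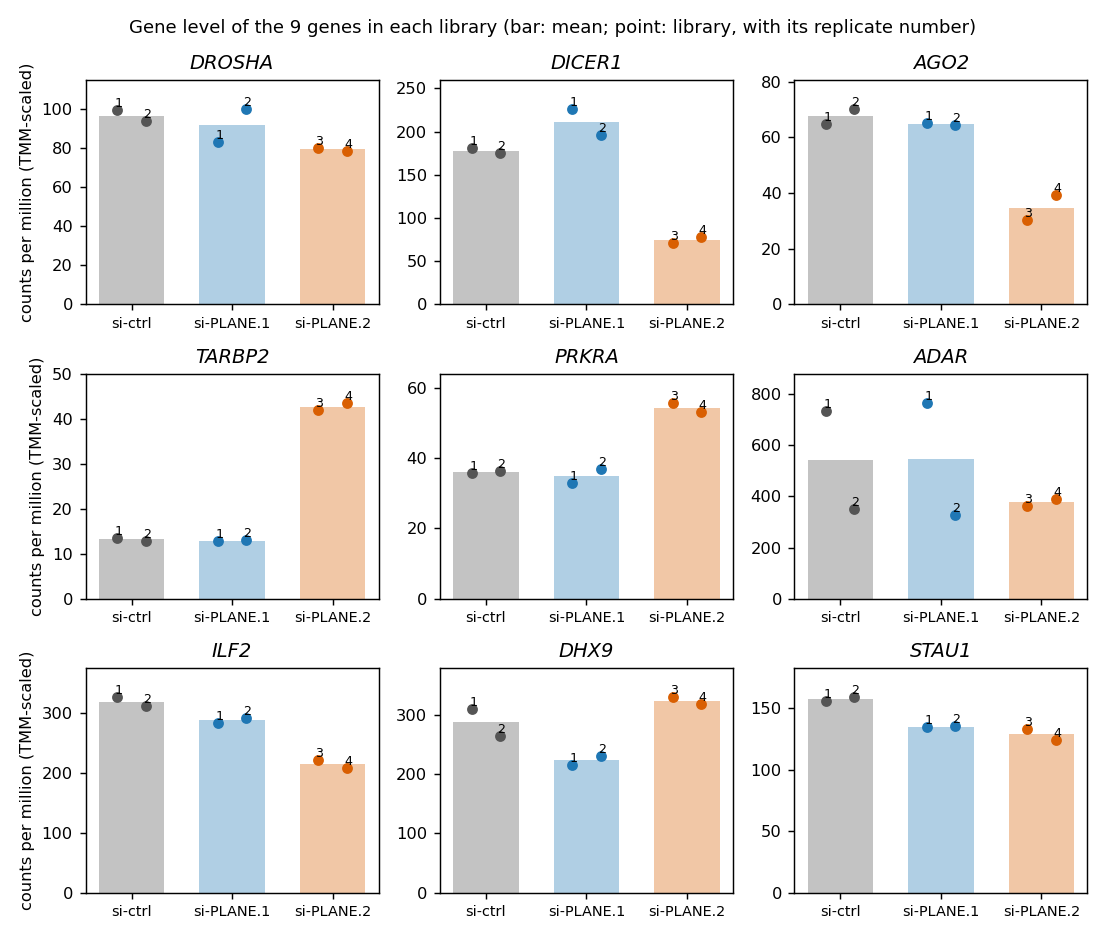
Level of the 9 genes in each library, in TMM-scaled CPM on axes that start at 0. Bars are group means of 2 libraries, points are libraries and digits are replicate numbers. TARBP2 rose from 13.6 and 12.9 in si-ctrl to 42.0 and 43.5 in si-PLANE.2, DICER1 fell from 180 and 175 to 71.1 and 78.1, and ADAR split within si-ctrl and si-PLANE.1.

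With si-PLANE.1, none of the 9 genes was called by edgeR, against 0.0344% of the 14535 genes tested. DESeq2 called none of them either, against 0.86%. At an unadjusted p under 0.05 there was 1, DHX9, against 10.4% of all genes. The log2 fold changes of the 9 ran from −0.37 to 0.24 with a median of −0.07, beside a median of 0.0018 over all genes. DICER1 was above si-ctrl and the other 8 were at or below it, several of them by amounts that changed sign with the scaling. The CPM ranges of the groups did not overlap for 4 genes, of which ILF2, DHX9 and STAU1 were lower, a pattern 21.1% of all genes showed, and DICER1 was higher, a pattern 21.5% showed.

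With si-PLANE.2, 7 of the 9 genes were called, against 64.1% of the 14168 genes tested. TARBP2 and PRKRA rose, against 31.8% of all genes, and ILF2, STAU1, DICER1, DROSHA and AGO2 fell, against 32.3%. ADAR and DHX9 were not called. With most genes called in these libraries, the count is no result about the 9 in particular. The median log2 fold change of the 9 was −0.30, beside −0.03 over all genes. Ranges did not overlap for 8 of the 9, of which 3 were higher (all genes, 41.4%) and 5 lower (41.5%).

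**Figure D2:**
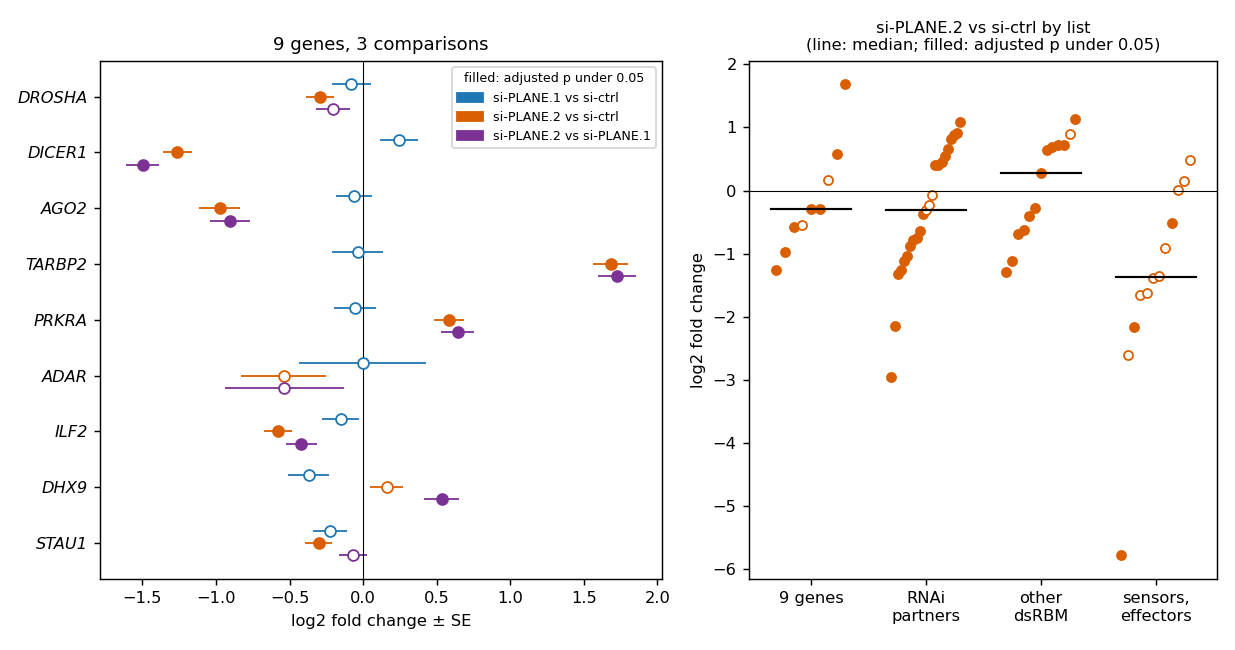
Left, log2 fold change with its standard error for the 9 genes in 3 comparisons. Right, log2 fold change of si-PLANE.2 against si-ctrl for the 9 genes and 3 lists of related genes, each point a gene and each line the list's median. Filled points have an adjusted p under 0.05. No si-PLANE.1 point on the left is filled, and the largest si-PLANE.2 values on the left are TARBP2 at 1.68 and DICER1 at −1.26.

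DROSHA (chr5:31400601-31532303, minus strand) makes the first cut of microRNA maturation. Its level was 99.1 and 93.5 CPM in si-ctrl, 83.1 and 99.8 in si-PLANE.1, and 80.0 and 78.5 in si-PLANE.2. The si-PLANE.1 libraries enclosed the control values, whereas both si-PLANE.2 libraries were below every other library. The log2 fold change was −0.08 ± 0.13 (SE, adjusted p = 0.855) with si-PLANE.1 and −0.29 ± 0.10 (adjusted p = 0.028) with si-PLANE.2. The si-PLANE.2 call was lost when either si-PLANE.2 library was left out (−0.30 without replicate 3 and −0.27 without replicate 4, adjusted p = 0.167 and 0.202) and when only the most abundant transcript was used (adjusted p = 0.241). It was also missed with no minimum level (adjusted p = 0.054) and in a fit of all 6 libraries (adjusted p = 0.058). On log2(FPKM + 1) and log2(TPM + 1) the difference was larger, −0.79 and −0.95 (limma, adjusted p = 0.0055 and 0.0022). All genes had a median of −0.22 and −0.37 on these scales, beside −0.03 on counts.

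DICER1 (chr14:95552565-95624347, minus strand), the nuclease that produces mature microRNAs and small interfering RNAs, had the largest fall of the 9 with si-PLANE.2. It was at 180 and 175 CPM in si-ctrl, 226 and 196 in si-PLANE.1, and 71.1 and 78.1 in si-PLANE.2. The groups did not overlap, with si-PLANE.1 above si-ctrl and si-PLANE.2 below it. The si-PLANE.2 level was 2.40-fold lower than si-ctrl (log2 −1.26 ± 0.10, adjusted p = 3.6e-05). The si-PLANE.1 difference of 0.24 ± 0.13 did not pass the test (adjusted p = 0.564).

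AGO2 (chr8:141530255-141645732, minus strand) is the human Argonaute that slices target RNA. It stood at 64.9 and 70.2 CPM in si-ctrl, 65.3 and 64.4 in si-PLANE.1, and 30.2 and 39.2 in si-PLANE.2. The si-ctrl and si-PLANE.1 ranges overlapped, and both si-PLANE.2 libraries were well below them. AGO2 fell 1.96-fold with si-PLANE.2 (log2 −0.97 ± 0.14, adjusted p = 0.000635), and its si-PLANE.1 value was −0.07 ± 0.12 (adjusted p = 0.871).

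TARBP2 (chr12:53894705-53900215, plus strand) moved the other way from its partner DICER1. It was at 13.6 and 12.9 CPM in si-ctrl, 12.8 and 13.1 in si-PLANE.1, and 42.0 and 43.5 in si-PLANE.2. The control and si-PLANE.1 libraries lay within 1 CPM of each other, and both si-PLANE.2 libraries were more than 3 times as high. The rise was 3.21-fold (log2 1.68 ± 0.12, adjusted p = 2.5e-05), the largest difference among the 9 on counts, whereas the si-PLANE.1 value was −0.04 ± 0.18 (adjusted p = 0.954). On log2(FPKM + 1) and log2(TPM + 1) the TARBP2 rise was smaller, 1.00 and 0.86, and the falls of DICER1 (−1.66 and −1.83) and AGO2 (−1.41 and −1.58) were larger than it. The median of all genes was also lower on these scales, at −0.22 and −0.37, beside −0.03 on counts. A lncRNA annotated on the opposite strand overlaps the first 655 bases of the gene, and whether the counting used strand is not stated.

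PRKRA (chr2:179296019-179316239, minus strand), the other partner of DICER1 and an activator of PKR, was at 35.6 and 36.3 CPM in si-ctrl, 32.8 and 36.9 in si-PLANE.1, and 55.6 and 53.1 in si-PLANE.2. Control and si-PLANE.1 libraries overlapped, and the si-PLANE.2 libraries were above both. PRKRA rose 1.50-fold with si-PLANE.2 (log2 0.58 ± 0.10, adjusted p = 0.00158), and its si-PLANE.1 value was −0.05 ± 0.14 (adjusted p = 0.916). The annotated lncRNA CHROMR lies on the opposite strand over 8952 bases of PRKRA, and PJVK over 167 bases.

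ILF2 (chr1:153634264-153643504, minus strand) was at 326 and 312 CPM in si-ctrl, 283 and 292 in si-PLANE.1, and 222 and 208 in si-PLANE.2. The groups did not overlap, and si-PLANE.2 was the lowest. With si-PLANE.2 ILF2 fell 1.49-fold (log2 −0.58 ± 0.10, adjusted p = 0.00128), and with si-PLANE.1 the value was −0.15 ± 0.13 (adjusted p = 0.706).

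DHX9 (chr1:182808482-182857117, plus strand) was at 310 and 264 CPM in si-ctrl, 216 and 231 in si-PLANE.1, and 329 and 317 in si-PLANE.2. The si-PLANE.1 libraries were the lowest and the si-PLANE.2 libraries the highest. Neither difference from si-ctrl passed the test, at −0.37 ± 0.14 (adjusted p = 0.436) with si-PLANE.1 and 0.16 ± 0.11 (adjusted p = 0.236) with si-PLANE.2. The latter turned to −0.013 on library totals alone and −0.15 on the TPM scale. On those scales the median of all genes was −0.20 and −0.37, beside −0.03 in the main fit. Without si-ctrl replicate 1 the DHX9 value was 0.26. In that fit the spread came from the si-PLANE.2 libraries alone and the lone control was assumed to vary like them. STAU1 (chr20:47729876-47804904, minus strand) was at 156 and 158 CPM in si-ctrl, 135 and 135 in si-PLANE.1, and 133 and 124 in si-PLANE.2. Both siRNA groups were below si-ctrl, by −0.23 ± 0.12 (adjusted p = 0.547) and by −0.30 ± 0.09 (adjusted p = 0.022). The si-PLANE.2 call for STAU1 was lost without si-PLANE.2 replicate 3 (−0.34, adjusted p = 0.113) or 4 (−0.24, adjusted p = 0.233) and with the most abundant transcript alone (−0.12, adjusted p = 0.317).

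The siRNAs were also compared directly, in a fit of all 6 libraries. In that comparison 6 of the 9 genes were called, against 64.4% of 14440 genes, 3 of them higher (all genes, 31.1%) and 3 lower (33.4%). The ranges of the siRNAs did not overlap for 8 of the 9, ADAR being the exception, with 3 higher (all genes, 40.3%) and 5 lower (43.2%). TARBP2 (log2 1.73 ± 0.13, adjusted p = 1.06e-05), PRKRA (0.64 ± 0.11, adjusted p = 0.00116) and DHX9 (0.53 ± 0.12, adjusted p = 0.00391) were higher with si-PLANE.2. DICER1 (−1.50 ± 0.11, adjusted p = 1.06e-05), AGO2 (−0.90 ± 0.14, adjusted p = 0.000454) and ILF2 (−0.42 ± 0.11, adjusted p = 0.0071) were lower. The values of ADAR (−0.54 ± 0.40), DROSHA (−0.21 ± 0.11) and STAU1 (−0.07 ± 0.10) did not pass the test, with adjusted p of 0.269, 0.142 and 0.544. The DHX9 difference was −0.017 on the TPM scale, where the median of all genes was −0.54, beside −0.06 in the main fit. The ILF2 call was lost without si-PLANE.2 replicate 4. ADAR was called at −1.03 without si-PLANE.1 replicate 2 and stood at 0.20 without replicate 1. DROSHA was called without si-PLANE.1 replicate 1 (−0.34, adjusted p = 0.037).

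ADAR (chr1:154554171-154600489, minus strand) differed between libraries of the same group. It was at 736 and 353 CPM in si-ctrl, 765 and 328 in si-PLANE.1, and 363 and 391 in si-PLANE.2. The library numbered 1 was 2.09-fold above the library numbered 2 in si-ctrl and 2.34-fold in si-PLANE.1, while the si-PLANE.2 libraries lay near the lower level. All 3 groups overlapped. The log2 difference from si-ctrl was −0.002 ± 0.43 with si-PLANE.1 (adjusted p = 0.999) and −0.54 ± 0.29 with si-PLANE.2 (adjusted p = 0.137). The si-PLANE.2 value rested on which control library was used, being 0.07 without si-ctrl replicate 1 and −0.98 without si-ctrl replicate 2. With 1 control left, the spread came from the si-PLANE.2 libraries alone, so the call made without si-ctrl replicate 2 does not take in the gap between the controls. ADAR was also called for the most abundant transcript alone (−1.08, adjusted p = 0.020). ADAR was the 1 gene of the 9 at least 1.5 times higher in replicate 1 than in replicate 2 in both groups, which 3.12% of the 14535 genes tested showed.

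Transcripts from both ADAR starts took part in that split. The p150-start transcripts together (ENST00000368474 and ENST00000529168) stood at 77.8 and 29.9 FPKM in si-ctrl, 79.4 and 23.3 in si-PLANE.1, and 33.1 and 37.9 in si-PLANE.2. The p110-start transcript ENST00000368471 stood at 54.8 and 32.0, 68.4 and 36.3, and 18.4 and 19.4 FPKM in the same order. Replicate 1 exceeded replicate 2 by 2.60-fold and 3.41-fold for the p150 starts and by 1.71-fold and 1.88-fold for the p110 start, in si-ctrl and si-PLANE.1 respectively. The ratio of p150-start to p110-start FPKM was 1.42 and 0.94 in si-ctrl, 1.16 and 0.64 in si-PLANE.1, and 1.80 and 1.95 in si-PLANE.2. The ratio was thus higher in both si-PLANE.2 libraries than in any other, and higher in replicate 1 than in replicate 2 of the other groups. ENST00000368474 and ENST00000368471 share 6405 exonic bases and differ in 205 and 114 of their own, so their split rests on few reads. These forms and ENST00000529168 have another length in the annotation used here than in the tables. The gap is largest for ENST00000529168, at 6343 against 3585 bases. By edgeR over all transcripts, no ADAR transcript was called with either siRNA, the lowest adjusted p with si-PLANE.2 being 0.079 for ENST00000368471 (log2 −0.92 ± 0.28) and 0.081 for ENST00000529168 (−1.61 ± 0.49). DESeq2 called both as lower (adjusted p = 0.0056 and 0.0058).

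**Figure D3:**
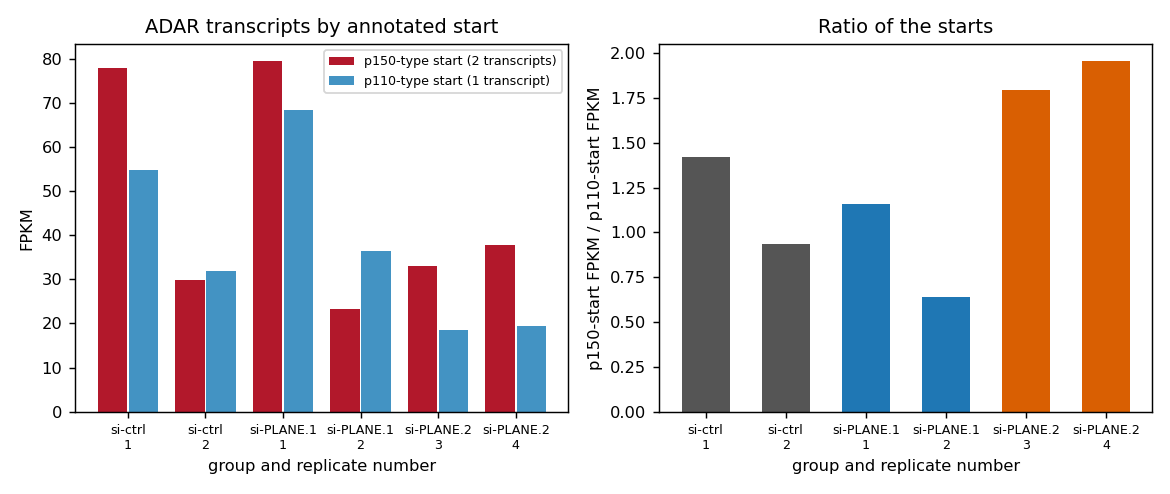
Left, FPKM of ADAR transcripts with the p150-type start (2 transcripts summed) and the p110-type start (1 transcript) in each library. Right, the ratio of the starts, coloured by group. The p150 bars are 77.8 and 79.4 FPKM in the libraries numbered 1 and 29.9 and 23.3 in those numbered 2, and the ratio is highest, at 1.80 and 1.95, in si-PLANE.2.

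The same split was found in the genes that detect dsRNA. Of 13 sensors and effectors, 12 passed the minimum in the si-PLANE.1 comparison, and 9 of them were at least 1.5 times higher in replicate 1 than in replicate 2 in both si-ctrl and si-PLANE.1. The median log2 difference between the replicates over the 12 was 2.12 in si-ctrl and 2.46 in si-PLANE.1, beside −0.0006 and −0.002 over all genes. EIF2AK2, which encodes the kinase PKR, was at 726 and 267 CPM in si-ctrl, 890 and 303 in si-PLANE.1, and 111 and 113 in si-PLANE.2. OAS2, which makes short 2-5A oligoadenylates in response to dsRNA, was at 68.0 and 0.72, 122.8 and 0.46, and 0.61 and 0.63 CPM. RIGI, a cytoplasmic sensor of dsRNA ends shown here after its values were seen, was at 97.3 and 14.9, 140 and 16.5, and 20.01 and 16.4 CPM. IFIH1 (MDA5), DHX58, OAS1, OAS3, OASL and TLR3 showed the split too, whereas MAVS and TICAM1 did not. Among 23 partners of the RNAi machinery and 13 other genes whose products carry a dsRNA-binding or related motif, no gene showed it. This ISRE core occurred within 150 bases before the most abundant protein-coding transcript of 3 of the 13 sensors (IFIH1, DHX58 and OAS3), beside the 1.84% of all starts, and of none of the 23 and 14 genes of the other lists. The 9 genes were searched before every protein-coding form at the minimum instead, and the ADAR match lay before a form that was not its most abundant in si-ctrl. In the 300-base promoters of the RefSeq table (GRCh38.p14), 4 of the 8 sensors listed there held the core (EIF2AK2, IFIH1, OAS3 and TLR3), beside 4.38% of 27305 genes. So did 2 of 23 partners, none of 12 other motif genes and none of the 8 listed genes of the 9, ADAR included. AGO2 is the gene of the 9 without an entry there.

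**Figure D4:**
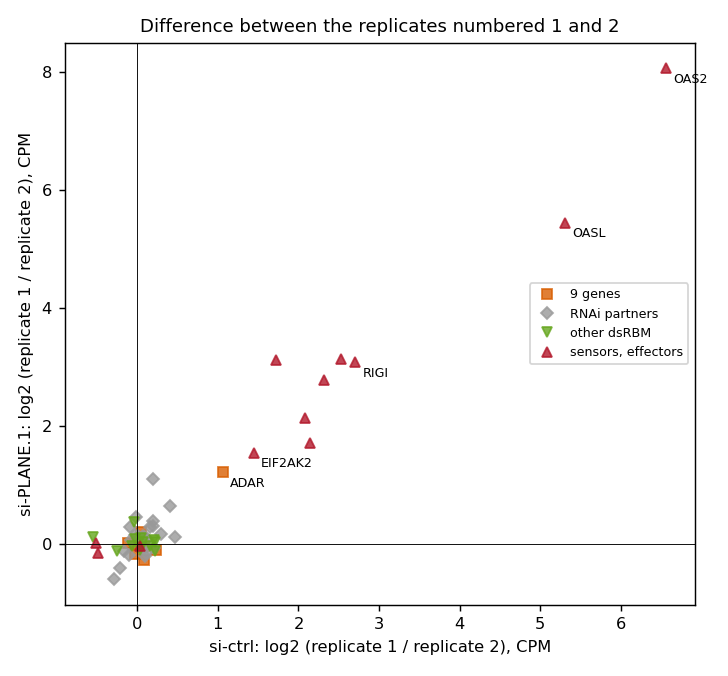
Log2 of replicate 1 over replicate 2 in CPM, for si-ctrl (horizontal) and si-PLANE.1 (vertical), each point a gene of the 9 or of one of 3 lists. ADAR lies with 9 sensors in the upper right, at 1.06 and 1.22, and the other 8 of the 9 genes lie near 0.

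No sensor was called with si-PLANE.1 by edgeR (all genes, 0.0344%), and 0 had an unadjusted p under 0.05 (all genes, 10.4%). Errors were wide for sensors that split between replicates, such as 0.26 ± 0.55 for EIF2AK2 and 0.84 ± 1.72 for OAS2. A sizable difference could therefore be missed. With si-PLANE.2, 3 of the 12 sensors fell (all genes, 32.3%) and none rose (31.8%). These were EIF2AK2 (log2 −2.16 ± 0.40, adjusted p = 0.00219), OAS2 (−5.79 ± 1.70, adjusted p = 0.019) and MAVS (−0.52 ± 0.18, adjusted p = 0.037), the mitochondrial adaptor of RIG-I and MDA5. EIF2AK2 was lower in both si-PLANE.2 libraries than in every other library, including those numbered 2. For OAS2 the si-PLANE.2 values were close to those of the libraries numbered 2. The median over the 12 was −1.37, beside −0.03 over all genes. Whether the split between the replicates numbered 1 and 2 plays a part in these values was not tested.

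Transcripts within the 9 genes were tested as well. The tables list 111 of them, of which 64 passed the minimum over the 6 libraries. Of 61 found in the annotation used here, 41 had the same length there as in the tables. With si-PLANE.1, 67 were tested and none was called by edgeR, as for all 57625 transcripts (0%), while 6 had an unadjusted p under 0.05 (all transcripts, 4.43%) and DESeq2 called 3 (0.689%). With si-PLANE.2, 63 were tested, and 16 were called, against 25.6% of 56791 transcripts, 5 higher (all transcripts, 12.9%) and 11 lower (12.7%). DESeq2 called 21, against 33.3%. No edgeR call remained when si-PLANE.2 replicate 3 or replicate 4 was left out. Transcripts of a gene share most of their bases, so each value depends on how the authors' tool divided reads between them.

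In STAU1, transcript shares differed on FPKM between si-ctrl and si-PLANE.1, though edgeR called neither the gene's total nor any of its transcripts. ENST00000360426, the most abundant form, measured 31.6 and 32.0 FPKM in si-ctrl, 22.5 and 20.7 in si-PLANE.1, and 27.2 and 26.9 in si-PLANE.2. By the annotation used here it holds 0 exonic bases of its own, so its level depends on how reads were divided. ENST00000371856 was at 5.09 and 5.04, 10.1 and 11.2, and 1.81 and 1.99 FPKM. In the annotation used here it starts translation at another codon and holds 291 exonic bases found in no other form at the minimum. The form is 3651 bases long there and 3500 in the deposited data, so the form measured may differ. Its share of STAU1 was 9.67% and 9.89% in si-ctrl, 21.6% and 25.0% in si-PLANE.1, and 4.76% and 5.51% in si-PLANE.2. On FPKM the groups did not overlap for either form, and for ENST00000371856 the siRNAs lay on opposite sides of si-ctrl. On scaled counts ENST00000360426 was not lower with si-PLANE.2, at a log2 of 0.05 ± 0.10 by edgeR (adjusted p = 0.752). With si-PLANE.1 edgeR gave log2 values of −0.65 (unadjusted p = 0.00483) and 0.98 (unadjusted p = 0.00415), with adjusted p of 0.942 and 0.929. Neither passed edgeR's adjusted threshold, but both passed that of DESeq2, with adjusted p of 0.00884 and 0.031. With si-PLANE.2 ENST00000371856 fell (−1.13 ± 0.23, adjusted p = 0.035), as did ENST00000371828 (−1.09 ± 0.25, adjusted p = 0.046).

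In PRKRA, the short retained-intron transcript ENST00000463882 (541 bases, chr2:179314806-179315900, minus strand) rose with si-PLANE.2. It held 0.33 and 0.41 FPKM in si-ctrl, 1.86 and 0 in si-PLANE.1, and 25.2 and 29.1 in si-PLANE.2, where it made up 47.0% and 53.0% of the gene's FPKM. Behind these lie 1.31 and 1.68 estimated counts in si-ctrl and 162 and 163 in si-PLANE.2 (adjusted p = 0.00837). The main coding form ENST00000325748 rose from 13.0 and 13.8 to 21.5 and 20.5 FPKM (log2 0.94 ± 0.15, adjusted p = 0.023). A second coding form, ENST00000487082, measured 3.82 and 9.05 FPKM in si-ctrl, 11.0 and 8.0 in si-PLANE.1, and 0 in both si-PLANE.2 libraries, at least 40.0-fold lower than si-ctrl when 3 counts per library are set in place of 0. Another retained-intron form, ENST00000490501, fell from 1.75 and 1.50 to 0.22 and 0.12 FPKM (adjusted p = 0.043).

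In TARBP2, the rise lay mainly in ENST00000266987. It held 0 and 0.53 FPKM in si-ctrl, 1.07 and 0 in si-PLANE.1, and 12.9 and 13.1 in si-PLANE.2 (adjusted p = 0.041). Of the gene's FPKM it made up 0% and 3.49% in si-ctrl and 39.8% and 39.9% in si-PLANE.2. The coding form ENST00000394357 had 4.80 and 2.52 FPKM with si-ctrl and 0.18 and 1.07 with si-PLANE.2 (adjusted p = 0.173). A rare transcript under the minimum over 6 libraries, ENST00000550147, was the fifth called higher, at least 10.3-fold.

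In DROSHA, the most abundant form ENST00000513349 had 15.8 and 14.9 FPKM with si-ctrl and 12.2 and 13.2 with si-PLANE.2 (log2 0.006 ± 0.11, adjusted p = 0.971). ENST00000511367, at 4.28 and 1.77 FPKM in si-ctrl and 3.87 and 4.64 in si-PLANE.1, was at 0 in both si-PLANE.2 libraries (at least 99.3-fold lower, adjusted p = 0.018). ENST00000344624 showed the opposite, at 0 in all 4 other libraries and 2.43 and 1.36 FPKM in si-PLANE.2 (at least 42.9-fold higher, adjusted p = 0.015). In the annotation used here it holds 3 exonic bases of its own and ENST00000511367 none. By that annotation these forms are told apart by their junctions and very few bases. ENST00000344624 is 5416 bases long there and 5102 in the deposited data. The retained-intron form ENST00000511778 was also at 0 with si-PLANE.2 (at least 8.23-fold lower, adjusted p = 0.039).

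**Figure D5:**
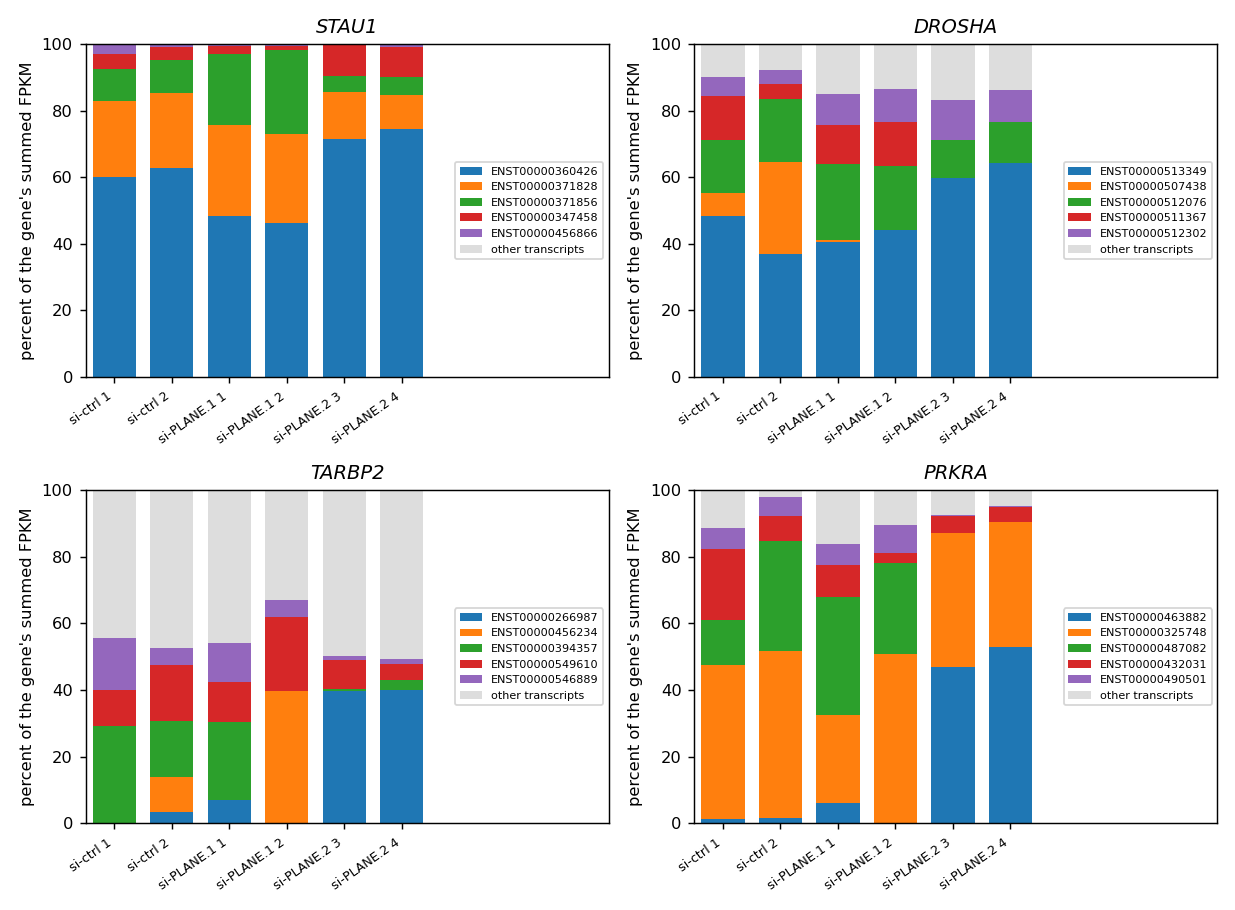
Share of each gene's summed FPKM held by its transcripts in each library, for STAU1, DROSHA, TARBP2 and PRKRA. The 5 transcripts with the highest share in any library are coloured, and the rest are grey. In PRKRA, ENST00000463882 fills 47.0% and 53.0% in si-PLANE.2 and at most 5.99% elsewhere.

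In DICER1, 2 transcripts were called with si-PLANE.2, and both were lower. DICER1 has several coding forms, of which ENST00000527414 had the highest mean FPKM in si-ctrl. It measured 9.44 and 8.21 FPKM in si-ctrl, 5.36 and 8.96 in si-PLANE.1, and 0.90 and 2.57 in si-PLANE.2. By edgeR it was not called with si-PLANE.2 (log2 −2.08 ± 0.54, adjusted p = 0.058), and by DESeq2 it was (adjusted p = 0.0016). The coding form ENST00000343455 measured 5.77 and 8.47 FPKM in si-ctrl, 12.1 and 11.3 in si-PLANE.1, and 4.28 and 3.16 in si-PLANE.2 (log2 −0.66 ± 0.28, adjusted p = 0.155). ENST00000526495 went from 3.96 and 1.89 FPKM to 0 in both si-PLANE.2 libraries (at least 191-fold lower, adjusted p = 0.013). For this form si-PLANE.1 replicate 1 also read 0 and replicate 2 read 0.85 FPKM. A reading of 0 was thus not limited to si-PLANE.2. The 897-base ENST00000554367 went from 8.77 and 10.6 FPKM to 0 (at least 40.4-fold lower, adjusted p = 0.015). In AGO2, the coding form ENST00000220592 fell from 14.3 and 9.75 to 3.66 and 4.56 FPKM (log2 −1.27 ± 0.26, adjusted p = 0.035), and the retained-intron form ENST00000520412 from 7.31 and 11.2 to 0 (at least 21.8-fold lower, adjusted p = 0.023). The form annotated as a target of nonsense-mediated decay, ENST00000523609, had 4.84 and 10.4 FPKM with si-ctrl and 4.70 and 6.61 with si-PLANE.2 (adjusted p = 0.815). ILF2 and DHX9 consisted almost entirely of 1 coding form. ENST00000361891 held at least 97.4% of ILF2 in every library and fell with si-PLANE.2 (log2 −0.49 ± 0.10, adjusted p = 0.037). ENST00000367549 held at least 83.2% of DHX9 and was not called (log2 −0.38 ± 0.14 with si-PLANE.1 and 0.26 ± 0.12 with si-PLANE.2, adjusted p = 0.999 and 0.19).

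The partners of the RNAi machinery were read from a list of 23 genes, all tested. None was called with si-PLANE.1 (all genes, 0.0344%), and 3 (AGO4, GEMIN4 and LIN28B) had an unadjusted p under 0.05 (all genes, 10.4%). With si-PLANE.2, 9 rose (all genes, 31.8%) and 11 fell (32.3%), with a median log2 of −0.31 beside −0.03 over all genes, and 3 of the 20 called (AGO4, FXR2 and GEMIN4) changed sign on the FPKM or TPM scale. The 4 Argonaute genes fell together on the count scale, AGO1 by 1.12 ± 0.11, AGO3 by 2.14 ± 0.12 and AGO4 by 0.64 ± 0.14 on the log2 scale beside AGO2 (adjusted p = 0.00011, 1.06e-05 and 0.0046), of which AGO4 was higher by 0.48 on the FPKM scale. The direction for the genes that changed sign thus depended on the unit, and the cause was not tested. TNRC6A, TNRC6B and TNRC6C, the GW182 scaffolds that link Argonaute to deadenylation, fell too. TNRC6B went from 203 and 214 CPM in si-ctrl and 244 and 232 in si-PLANE.1 to 23.6 and 30.6 in si-PLANE.2 (log2 −2.96 ± 0.14, adjusted p = 6.76e-06). TNRC6A (−1.04 ± 0.11, adjusted p = 0.000113) and TNRC6C (−1.27 ± 0.21, adjusted p = 0.00134) fell less. DDX6, a helicase of the decapping machinery, was at −1.32 ± 0.11 (adjusted p = 5.51e-05). On log2(TPM + 1) DDX6 was at −1.97, where the median of all genes was −0.37.

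Other members of the list rose with si-PLANE.2. DGCR8, the RNA-binding partner of DROSHA, went from 31.6 and 29.0 to 54.4 and 53.5 CPM (log2 0.82 ± 0.10, adjusted p = 0.000357). On log2(TPM + 1) the DGCR8 rise was 0.25, where the median of all genes was −0.37. The values of the Microprocessor's nuclease and its partner differed in direction, but the DROSHA call was lost in several alternatives, as described above. RAN, the GTPase of hairpin export, rose by 1.08 ± 0.10 (adjusted p = 7.97e-05), whereas its export receptor XPO5 was at −0.07 ± 0.10 (adjusted p = 0.564) on counts. On log2(FPKM + 1) XPO5 was at −0.96, from 28.8 and 22.1 FPKM in si-ctrl to 12.6 and 12.5 in si-PLANE.2. The median of all genes was −0.22 on that scale. TSN, TSNAX and SND1 were picked after their values were seen. TSN (0.92 ± 0.10, adjusted p = 0.000185) and TSNAX (0.55 ± 0.16, adjusted p = 0.018), which together form the C3PO nuclease that clears passenger strands, rose. On log2(TPM + 1) TSN was at 0.13 and TSNAX at 0.82. SND1, a nuclease found with Argonaute complexes, rose by 0.88 ± 0.10 (adjusted p = 0.00019).

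Of 14 other genes whose products carry a dsRNA-binding or related motif, 13 were tested, since ADARB2 was at 0 in every library. None was called with si-PLANE.1 (all genes, 0.0344%), and 1, CDKN2AIP, had an unadjusted p under 0.05 (all genes, 10.4%). With si-PLANE.2, 6 rose (all genes, 31.8%) and 6 fell (32.3%), with a median log2 of 0.28 beside −0.03 over all genes. Of the 12 called, 2 changed sign on the TPM scale, and DUS2 was one of them. STAU2, the paralog of STAU1, fell by 1.12 ± 0.11 on the log2 scale (adjusted p = 8.12e-05), from 76.2 and 79.5 to 37.9 and 34.2 CPM, beside a smaller difference in STAU1. Of the others called, SPEN fell by 1.30 ± 0.10 (adjusted p = 3.2e-05) and MRPL44, PRKRIP1 and CDKN2AIP rose by 1.14 ± 0.11, 0.72 ± 0.15 and 0.72 ± 0.16 (adjusted p = 7.48e-05, 0.0046 and 0.0058). ADARB1, which encodes the other active editing enzyme, was at 8.16 and 11.9 CPM in si-ctrl, 13.0 and 11.9 in si-PLANE.1, and 31.6 and 6.03 in si-PLANE.2, and it was not called (adjusted p = 0.24). Its si-PLANE.2 libraries lay on either side of all the others.

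Across the 6 libraries, the gene most like each of the 9 by Pearson correlation of log2(FPKM + 1), given as a description over 14090 genes, was ZSCAN22 for ILF2, NXT2 for DHX9, TIMM22 for ADAR, RNF150 for STAU1, PLXNA3 for DICER1, FAM72D for DROSHA, MAML1 for AGO2, NDUFS5 for TARBP2 and RTL8C for PRKRA. The coefficients ran from 0.994 to 0.999. A coefficient of 0.95 or more was reached by 2416 genes for DICER1 and 2140 for ILF2 but by 77 for ADAR and 6 for DHX9. All of these coefficients rest on 6 points that share the gap between si-PLANE.2 and the other libraries.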

How the data were processed

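The deposited tables hold, for each library, expected counts and FPKM (length-scaled fragments) per Ensembl transcript, which the authors made on hg19. Per the labels, the processing notes name Trimmomatic 0.30, HISAT2 2.0.1, HTSeq 0.6.1 and DESeq. The tool behind the expected counts is not given in the sources used here. The methods name both poly(A) isolation and rRNA removal.

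Here transcripts were summed per gene, and transcripts without a gene (3.03% to 3.62% of counts) were left out of gene tests. Expected counts were rounded. Features averaging 0.5 FPKM or more across the libraries fitted were tested with edgeR 4.0.16 (glmQLFit, glmQLFTest, TMM, two-sided), in R 4.3.3, each siRNA against si-ctrl in 4 libraries and the siRNAs against each other in 6. DESeq2 1.42.0 and limma 3.58.1 were alternatives. Exon and start positions came from GENCODE 44 lifted to GRCh37. The tests were checked on simulated data: gene tests recovered most changed genes, and transcript tests recovered the size of the changes but called almost none, so a transcript that was not called may have changed. CPM uses the TMM factors of the fit of 6 libraries.

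Named were the 9 genes, their transcripts, 10 set related genes and up to 4 further called genes per list by size of change, unless said otherwise. The 9 genes and the lists were chosen with earlier results of these data known. Values of some single list genes are not reported here.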

Additional observations from a re-analysis of the deposited data

Results flagged for a closer look

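The effects of the siRNAs relative to the shared si-ctrl libraries differed by edgeR's test of si-PLANE.2 against si-PLANE.1 in 6 of the 9 genes. The log2 differences were 1.73 for TARBP2, 0.64 for PRKRA and 0.53 for DHX9, higher with si-PLANE.2, and −1.50 for DICER1, −0.90 for AGO2 and −0.42 for ILF2, lower with it. Both si-PLANE.2 libraries lay outside the si-PLANE.1 range in each of the 6. The same test called 64.4% of all genes, and the si-PLANE.2 libraries also differed in histone mRNA content, whose part in these values was not tested.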

How the results depend on the processing

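With si-PLANE.1, the count of called genes among the 9 stayed at 0 in every alternative except the replicate block on the numbers 1 and 2, which called 1, DHX9 (−0.37). The difference of replicate 1 from replicate 2 in si-ctrl correlated with that in si-PLANE.1 at 0.493 across 14535 genes, but nothing in the labels ties equal numbers to a shared batch. Under the block, calls over all genes went from 5 to 1225 (8.43% of those tested) with si-PLANE.1. No paired analysis was possible because si-ctrl and si-PLANE.2 share no replicate number, so the block planned for that comparison was not run. DESeq2 called 3 transcripts of the 9 genes with si-PLANE.1 in place of 0. With si-PLANE.2, leaving out 1 library gave 0 to 15 transcripts called in place of 16, and 5 to 8 genes in place of 7.

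Small si-PLANE.1 values changed sign. ADAR became 0.0044 with DESeq2, 0.0046 with its size factors, 0.030 with 75th-percentile scaling, 0.093 on library totals, 0.12 on TPM, 0.014 with a minimum of 2 FPKM, 0.042 on FPKM with either pseudocount, 0.0056 in a fit of 6 libraries and 0.19 for the most abundant transcript. Library totals gave 0.0048 for DROSHA, 0.025 for AGO2, 0.050 for TARBP2 and 0.034 for PRKRA. TPM gave 0.013 for ILF2, 0.049 for TARBP2 and 0.19 for PRKRA, and FPKM gave 0.12 for PRKRA with either pseudocount. With si-PLANE.2, DHX9 was −0.013 on library totals and −0.15 on TPM. Between the siRNAs, DHX9 was −0.017 on TPM, and the most abundant transcript gave 0.61 for STAU1 and 0.096 for DROSHA. Leaving out 1 library moved ADAR from −0.74 to 0.63 with si-PLANE.1, from −0.98 to 0.070 with si-PLANE.2 and from −1.03 to 0.20 between the siRNAs. With si-PLANE.1 it moved DROSHA from −0.22 to 0.049, TARBP2 from −0.077 to 0.0067 and PRKRA from −0.14 to 0.032. The cause of these reversals was not tested. The median of all genes with si-PLANE.2 was −0.37 on TPM, −0.22 on FPKM and −0.20 on library totals, beside −0.03 in the main fit. With si-PLANE.1 it was 0.14 on TPM, 0.08 on FPKM and 0.09 on library totals, beside 0.0018. Between the siRNAs it was −0.54 on TPM, beside −0.06.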
